A study of Mus musculus with 9 samples.

Results

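Mural cells are the smooth muscle cells and pericytes that wrap blood vessels. Here they were taken from single-cell libraries of the mouse synovial joint as cells with at least 1 unique molecular identifier (UMI, a count of captured RNA molecules) of at least 2 of 3 markers, *Myh11*, *Rgs5* and *Notch3*, and with no UMI of *Ptprc*, *Pecam1*, *Cdh5* and *Lrrc15*. That gate held 86 of the 4788 cells kept in the 9 libraries. All libraries came from *Gdf5*-Cre;Tom;Pdgfrα-H2BGFP mice aged 11 to 12 weeks, in which cells that once expressed *Gdf5*, and their progeny, carry the red reporter tdTomato, and cells with an active Pdgfrα promoter carry nuclear green fluorescent protein (GFP). Live Tom+ cells (*Gdf5* lineage) and Tom-GFP+ cells (other Pdgfrα-expressing cells) were sorted from collagenase digests of naive knees or of knees 6 days after surgery that scratched the cartilage of the trochlear groove. There were 2 Tom+ and 1 Tom-GFP+ steady-state libraries, and 4 Tom+ and 2 Tom-GFP+ injured libraries. A steady-state knee had no operation, so that the arthrotomy and the cartilage injury cannot be told apart. The Tom-GFP+ gate takes cells with an active Pdgfrα promoter, and *Gdf5*-Cre labels a lineage and not a present state.

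In large arteries and arterioles, smooth muscle cells narrow the vessel with a contractile apparatus of smooth muscle actin, myosin and their regulators. Pericytes sit along capillaries in the basement membrane, in contact with the endothelium, and are held there by platelet-derived growth factor signals from endothelial cells through *Pdgfrb*. *Notch3* is the Notch receptor that both kinds of mural cell use to respond to ligands of the endothelium. In synovium these cells lie in the vascularised sublining, among *Thy1*+ fibroblasts.

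The genes of the gate lie apart in the GRCm38 genome. *Myh11*, the smooth muscle myosin heavy chain, is on chromosome 16 (14194535 to 14291372, minus strand), *Rgs5*, a regulator of G protein signalling found in pericytes, on chromosome 1 (169655501 to 169695813, plus strand), and *Notch3* on chromosome 17 (32120820 to 32166852, minus strand). The contractile genes are classic targets of serum response factor, which binds the CArG box. In the 250 bases before the start of transcription in RefSeq (GRCm38.p6), a CArG box stood in 439 of 27025 genes (1.62%), in 1 of 16 contractile genes with an entry and in 0 of 10 pericyte genes with one. The form of the box is the same on both strands, so that a match on one is a match on the other. The gene with the box was *Myl9*, the regulatory light chain of smooth muscle myosin, whose RNA is among the values below. Its 100 bases around the box are shown for that reason, from the plus strand at chr2:156775258-156775357, with the box in capitals 161 to 152 bases before the start:
Myl9: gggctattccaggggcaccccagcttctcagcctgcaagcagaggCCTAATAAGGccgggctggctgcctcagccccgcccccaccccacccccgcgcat
This window says nothing of sites that lie elsewhere.

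All 86 mural cells were in Tom+ libraries. The steady-state libraries held 6 of 331 kept cells (1.81%, exact 95% binomial interval 0.668 to 3.90) and 8 of 544 (1.47%, 0.637 to 2.88). The injured libraries held 36 of 759 (4.74%, 3.34 to 6.51), 20 of 826 (2.42%, 1.49 to 3.71), 5 of 518 (0.965%, 0.314 to 2.24) and 11 of 620 (1.77%, 0.889 to 3.15). The injured libraries thus spanned a range that held both steady-state values. The Tom+ share was 1.64% ± 0.242 (SD, n = 2 libraries) in the steady state and 2.48% ± 1.62 (SD, n = 4) after injury. The difference of 0.834 percentage points lay within the spread between libraries (exact two-sided permutation test, p = 0.667 over 15 arrangements). With all 3 markers required, the shares were 0% and 0.184% in the steady state and 3.03%, 1.94%, 0.772% and 0.484% after injury, so that the states did not overlap (1.46 points, exact p = 0.133). With cells thinned to 3000 UMIs, the shares were 1.59% and 1.53% against 2.90%, 2.47%, 0.990% and 1.16% (0.318 points, exact p = 0.8). Without Tom+ injured replicate 1 the difference was 0.0786 points (exact p = 0.9). Without the 4 cells with fibroblast genes described below it was 0.673 points (exact p = 0.733). Such intervals cover counting error only, and a share of sorted cells depends on what the digest and the sort let through.

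The Tom-GFP+ libraries held 0 of 410, 0 of 503 and 0 of 277 kept cells, and 0 of 1190 together allows a share of up to 0.252%. Within state, the Tom+ share exceeded the Tom-GFP+ share by 2.06 points (exact two-sided permutation test within state, p = 0.0222, the smallest that 45 arrangements can give, and higher in 6 of 6 Tom+ libraries than in any Tom-GFP+ library). Adjusted over the 3 tests of shares this p was 0.0667, and those of the comparisons by state were 0.667. The study describes the Tom-GFP+ cells as coming from mice matched to those of Tom+ libraries. The labels do not pair them, so that this test treats as independent libraries that may share an animal. State within lineage, the third test, gave a difference of 0.417 points (exact p = 0.667). The sort bears directly on this contrast. The RNA of the GFP reporter was detected in 6 of 86 mural cells and that of *Pdgfra* also in 6, against 84.3% and 79.6% of 4578 other stromal cells. In both cases 4 of the 6 were the cells with fibroblast genes described below, and 2 were among the other 82. Mural cells that carry neither label were not sorted, and lineage and gate cannot be told apart. The tdTomato RNA was detected in 82 of 86 mural cells (95.3%), at 453 and 746 CPM (counts scaled to the summed UMIs) in the summed steady-state mural cells and at 524, 860, 943 and 586 CPM after injury.

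**Figure D1:**
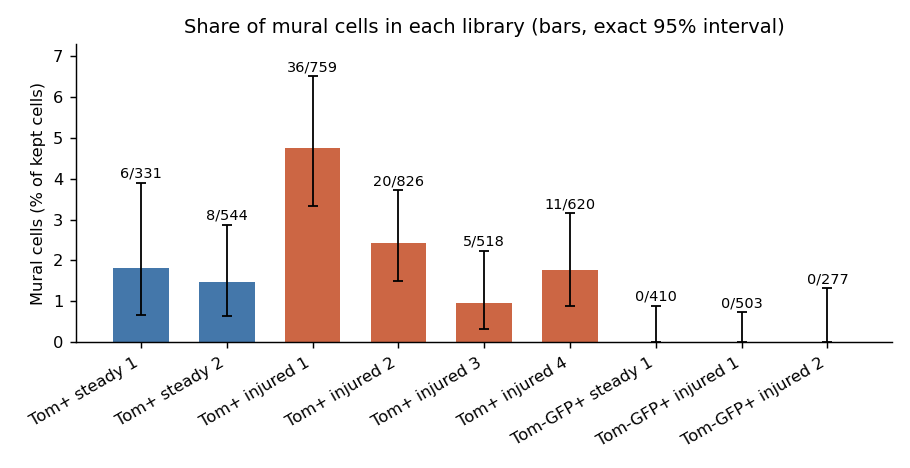
Mural cells as a percentage of the kept cells of each of the 9 libraries (bars), with exact 95% binomial intervals (lines) and the number of mural cells over kept cells above each. The 3 Tom-GFP+ libraries are at 0, and the 4 injured Tom+ libraries run from 0.965% to 4.74%, around the steady-state values of 1.81% and 1.47%.

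The label was checked on genes that the gate did not use. In the mural cells as a whole, UMIs of *Acta2*, smooth muscle α-actin, were detected in 74 of 86, of *Tagln*, an actin-binding protein of smooth muscle, in 75, and of *Myl9* in 79. *Des*, the muscle intermediate filament desmin, was found in 75, and *Pdgfrb* in 74. The pericyte genes *Cox4i2*, *Higd1b*, *Abcc9* and *Kcnj8*, of which the last pair form a potassium channel that responds to ATP, were found in 63, 58, 57 and 57 cells. Among other stromal cells *Higd1b* had UMIs in 0.197%, *Mcam* in 1.22% (68 of 86 mural cells) and *Lmod1*, which nucleates actin filaments in smooth muscle, in 0.393%. The satellite cell gene *Pax7* and the endothelial genes *Kdr* and *Tie1* were at 0 in all mural cells, while the endothelial genes *Esam*, *Eng*, *Plvap* and *Emcn* were not, as given below. These figures describe the cells that the gate took, and no test of mural against other stromal cells is given, because the gate is that contrast.

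Just outside the gate, among cells without UMIs of the 4 barring genes, 513 had a UMI of 1 marker only. Their *Acta2* level was 70.8 CPM and 96.5% of them had *Dcn*, a proteoglycan of fibroblasts, beside 37.2 CPM and 98.5% in the 2921 such cells that had none of the markers. Just inside, the 39 cells with 2 markers had 8363 CPM of *Acta2* and 28.2% had *Dcn*, and the 47 with all 3 had 10705 CPM and 40.4%. A further 16 cells met the marker condition but had UMIs of the endothelial genes *Pecam1* or *Cdh5*, at 1649 CPM of *Acta2*. Another 8 were barred by *Lrrc15* alone, all of them from injured libraries, at 7321 CPM of *Acta2* and 420 CPM of *Higd1b*. None was barred by the leukocyte gene *Ptprc*.

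The gate did not take pure mural cells everywhere. In Tom+ injured replicate 4, 4 of the 11 cells had no UMI of *Acta2*, *Tagln*, *Myl9*, *Mcam*, *Higd1b*, *Abcc9* or *Kcnj8*, and between 1 and 7 UMIs of *Rgs5*. The same 4 cells had 132 to 1754 UMIs of *Prg4*, which encodes lubricin of the synovial lining, 57 to 240 of *Dcn*, and UMIs of *Pdgfra* and of the GFP reporter. *Prg4* was also detected in 21 of the other 82 mural cells, at no more than 2 UMIs. The 4 were singled out after their values were seen (at least 1 UMI of *Pdgfra* and 10 of *Dcn*), and they are called *Prg4*+ cells here. They held 60.7% of the UMIs of that library's mural cells, so that most of its levels move without them, and values for this library include them unless the text says otherwise. Over its summed mural cells *Acta2* stood at 3353 CPM with them and at 8531 CPM without. No other library held such a cell. Of the 12 barcodes that occurred in more than 1 library, none belonged to a mural cell.

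Marker lists of other cell types were read in the same sums. The 12 endothelial genes summed to 181 and 241 CPM in the steady state and to 514, 646, 648 and 286 CPM after injury, against 98.9 to 160 CPM in other stromal cells of the same libraries. The most abundant was *Esam*, a junction protein that pericytes also make, at 121 and 144 CPM against 232, 285, 354 and 143 CPM. Of the rest, *Eng*, a co-receptor of transforming growth factor β, had 30.2 and 48.1 CPM against 37.6 to 131 CPM, *Plvap*, of endothelial fenestrae, 30.2 and 24.1 against 58.9 to 82.7 CPM, and *Emcn*, endomucin, 0 and 24.1 against 0 to 88.4 CPM. The 8 osteoblast genes summed to 362 and 265 CPM against 1933, 1260, 795 and 2308 CPM, led throughout by *Col1a1*, which fibroblasts and mural cells share. Both sums were higher in every injured library, and their part in the results by state was not tested. The 10 skeletal muscle genes, led by *Des*, summed to 256 to 1101 CPM. The 7 lining fibroblast genes summed to 72.2 to 206 CPM outside injured replicate 4 and to 27276 CPM in it, led there by *Prg4*. The 6 tenocyte genes summed to 151 and 96.2 CPM in the steady state and to 21.1, 5.48, 0 and 37.6 CPM after injury. That sum was lower in every injured library, and its part was not tested either. Immune genes reached at most 60.1 CPM, chondrocyte genes 88.4 CPM and Schwann cell genes 52.6 CPM, and the 5 erythrocyte genes were at 0 in all 6 libraries.

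Against the other stromal cells of the same libraries, 26 of 2963 genes with at least 50 CPM in mural cells were at least 4-fold higher in each of the 6 libraries (0.877%). Outside the gate's genes, *Tinagl1*, a basement membrane protein, stood highest by its lowest library, at a mean of 990 CPM against 2.48 CPM and a log2 ratio of 4.27 to 6.30 (after adding 20 CPM). It was followed by *Acta2* (4.15 to 10.1), *Mylk*, the kinase that switches on smooth muscle myosin (3.72 to 5.40), *Myl9* (3.53 to 8.11), *Tagln* (3.34 to 9.12) and *Gja4*, a gap junction protein of vessel walls (3.23 to 4.89). Other genes among the first 20 were *Gm13889*, *Rgs16*, *Ppp1r14a*, *Esam*, *Rbpms*, *Filip1l*, *Des* and *Tpm1*, the pericyte genes *Gucy1a1*, *Cox4i2*, *Higd1b*, *Abcc9* and *Rgs4*, and *Epas1*, a hypoxia-inducible factor abundant in vessel walls. In the other direction 2 of the 2963 genes were at least 4-fold lower in each library (0.0675%). Genes entered these counts by their level in mural cells, which favours higher genes. Below that minimum, *Lum*, a proteoglycan of fibroblast matrix, stood at 31.1 CPM against 2161 CPM.

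Among themselves the mural cells differed widely in contractile RNA. The 18 genes of a contractile list made up 0.159% to 13.3% of a cell's UMIs, and 0.0281% to 0.0869% in the 4 *Prg4*+ cells. Of the 86 cells, 47 had all 3 markers, 24 had *Rgs5* and *Notch3*, 12 had *Myh11* and *Notch3*, and 3 had *Myh11* and *Rgs5*. The 12 cells without *Rgs5* had between 6 and 55 UMIs of *Myh11*, and the contractile list took a median of 10.1% of their UMIs. In the 70 cells with *Rgs5*, the *Prg4*+ cells left out, the list took a median of 1.25%. *Thy1*, best known here as a marker of sublining fibroblasts, was detected in 0 of the 12 cells and in 66 of the 70. *Ogn*, a small proteoglycan of vessel walls and other connective tissue, stood at 1202 CPM in the 12 and at 20.2 CPM in the 70, and *Lmod1* at 607 and 41.7 CPM. The pericyte gene *Abcc9* was at 13.2 and 193 CPM, *Kcnj8* at 39.6 and 415 CPM, and *Higd1b* at 52.8 and 390 CPM. The levels of *Mcam*, 317 and 319 CPM, did not separate the 2 sets. *Rgs5* is part of the gate, so these values describe the cells and were not tested. Across the 82 cells left without the 4 *Prg4*+ cells, the contractile and pericyte shares of UMIs had Pearson's r of -0.396 and Spearman's rho of -0.422. The cells share 6 libraries and shares of one total, so that r is a description only.

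**Figure D2:**
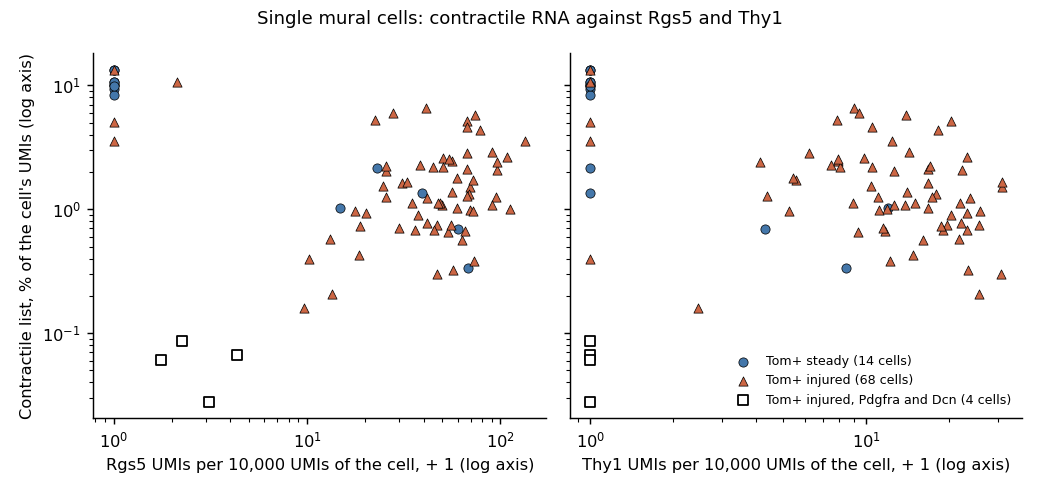
Each point is 1 mural cell, with the contractile list as a percentage of its UMIs (y axis, log) against *Rgs5* (left) or *Thy1* (right) UMIs scaled to the cell's total, plus 1 (x axes, log). Circles are the 14 steady-state cells, triangles 68 injured cells and open squares the 4 *Prg4*+ cells (at least 1 UMI of *Pdgfra* and 10 of *Dcn*). Cells without *Rgs5* lie at the upper left, between 3.57% and 13.3%, and have no *Thy1*.

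The states held these 2 sets of cells in different numbers. *Rgs5* was detected in 2 of 6 and 3 of 8 steady-state mural cells, and in 34 of 36, 20 of 20, 5 of 5 and 10 of 11 injured mural cells. *Rgs5* levels were 845 and 914 CPM in the steady state and 4273, 5625, 4714 and 1361 CPM after injury. *Myh11* levels were 3259 and 2598 CPM against 257, 504, 206 and 218 CPM. *Notch3* levels were 513 and 698 CPM against 377, 515, 501 and 233 CPM. The groups did not overlap in *Rgs5* and *Myh11* and overlapped in *Notch3*. Without the 4 *Prg4*+ cells injured replicate 4 had 3175 CPM of *Rgs5*, 536 CPM of *Myh11* and 536 CPM of *Notch3*, and the same held. The gate chose the cells by these genes, so that these levels describe its make-up and support nothing on the states. Depth, and the detection of *Rgs5* outside the gate, also moved with state. *Rgs5* was detected in 2.80% and 2.45% of other stromal cells of the steady-state libraries but in 13.7% to 22.2% of those of the injured libraries. The median mural cell had 5651 and 4526.5 UMIs in the steady state and 11710, 8376, 7513 and 9310 after injury. With cells thinned to 3000 UMIs, which leaves out shallower cells, the members were 5 and 8 in the steady state and 22, 20, 5 and 7 after injury, and 98 of the 438 genes then tested passed between the states.

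To ask how the RNA of mural cells differed after injury, UMIs were summed over the mural cells of each Tom+ library. Of 1827 genes tested, 54 were higher after injury (2.96%) and 73 lower (4%) by the quasi-likelihood test of edgeR (false discovery rate 0.05), and 491 had an unadjusted p under 0.05. DESeq2 called 187. All 127 genes had injured libraries that lay on one side of both steady-state libraries. The calls rest on 14 steady-state cells. With either steady-state library left out, 5 genes (without replicate 1) and 0 genes (without replicate 2) passed, against 544 and 430 at an unadjusted p under 0.05. The format of the deposited gene lists, older in the steady-state libraries and in injured replicate 1, left 0 of 2746 genes then tested when it was a term in the model (330 unadjusted, smallest adjusted p = 0.0907). None of the 42 genes named from this comparison changed direction in these or any other refit, but in 231 of 742 refits of these genes the call was lost. They were named from calls in which the states did not overlap, so that their direction could hardly turn. Without the 4 *Prg4*+ cells, an alternative added after seeing the data, 194 of 905 genes passed (82 higher, 9.06%, and 112 lower, 12.4%). The states stayed apart in all 42 named genes, and the 37 of them that were tested passed. With all cells that had a *Pdgfra* UMI left out, 207 of 908 passed. In bulk sums like these, fewer cells of one kind and less RNA per cell cannot be told apart.

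Of the 23 lists, the contractile genes gave the most calls among genes that fell. Of 18 listed, 17 were tested and 11 were lower, against 4% of all genes tested, with none higher, and the median log2 fold change was -2.32 against 0.11 for all genes tested. *Acta2* (chromosome 19, 34241090 to 34255590) stood at 30781 and 27354 CPM in the steady state and at 9977, 7235, 3889 and 3353 CPM after injury. The lowest steady-state value was above the highest injured one, and the log2 change was -2.27 (standard error 0.41, edgeR adjusted p = 0.0154). *Tagln* (chromosome 9, 45929619 to 45936058) stood at 23418 and 19006 CPM against 5064, 4546, 2210 and 3180 CPM, a log2 change of -2.51 (standard error 0.34, adjusted p = 0.00472). *Myl9* stood at 8752 and 9599 CPM against 1838, 2010.0, 795 and 947 CPM, a log2 change of -2.71 (standard error 0.39). *Tpm2*, a muscle tropomyosin, stood at 7846 and 6977 CPM against 1497, 986, 795 and 571 CPM, a log2 change of -2.95 (standard error 0.36). In each of these 4 genes the lowest injured levels were those of replicates 3 and 4. For replicate 4 that rested on the *Prg4*+ cells, without which it had 8531 CPM of *Acta2*, 8091 of *Tagln*, 2410.2 of *Myl9* and 1282 of *Tpm2*, and ranked highest or second among the injured libraries. The others that fell were *Flna* (-2.54 on the log2 scale), *Cnn1* (-2.54), *Lmod1* (-3.47), *Smtn* (-3.19), *Sncg* (-2.32), *Ppp1r14a* (-2.11), which encodes an inhibitor of myosin phosphatase, and *Pln* (-4.39), which encodes phospholamban, a brake on the calcium pump. Without the *Prg4*+ cells, 12 of the 17 were lower and 2 higher (*Des* and *Actg2*, an enteric smooth muscle actin), where 12.4% of all genes tested were lower and 9.06% higher. The 2 that were higher are thus near the share of all genes.

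*Set* by *Rgs5*, the contractile genes did not run one way. In the 5 steady-state cells with *Rgs5*, *Acta2* stood at 3111 CPM and *Tagln* at 1581 CPM. In the 65 injured cells with *Rgs5*, the *Prg4*+ cells left out, they stood at 8690 and 4502 CPM. In the 9 steady-state cells without *Rgs5* they stood at 38041 and 27860 CPM, and in the 3 injured cells without it at 17151 and 23159 CPM. Cell by cell the sets were less clear. The 3 injured cells without *Rgs5* had 3.57%, 5.02% and 13.2% of their UMIs in contractile genes, and the steady-state cells without it 8.40% to 13.3%, so that the lower sum came from 2 cells of injured replicate 1. In cells with *Rgs5* the median share was 1.03% in the steady state and 1.26% after injury, with 1 injured cell at 10.6%. These values have no test, since *Rgs5* chose the cells. Restricting the gate to cells with *Myh11* left 3 genes that passed, all lower after injury, in 4 libraries of which 1 was of the steady state.

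No gene of the pericyte list passed in either direction, though single genes did under other settings. Of 14 listed, 13 were tested, with a median log2 fold change of 0.44 against 0.11 for all genes. *Ndufa4l2*, a mitochondrial protein induced in hypoxia, stood at 543 and 265 CPM in the steady state and at 762, 898, 825 and 609 CPM after injury (log2 fold change 0.93, standard error 0.38, edgeR adjusted p = 0.155). Without the *Prg4*+ cells the last value was 1549 CPM, and none of 12 tested genes of the list passed either. *Higd1b* passed as higher with *Pdgfra* at 0 (1.81, adjusted p = 0.0497) and with the replicate number as a block, *Ndufa4l2* with cells thinned (1.52, adjusted p = 0.0187) and without the highest doublet scores (1.85, adjusted p = 0.0191), and *Vtn* without a filter on low counts. *Kcnj8* stood at 573 and 48.1 CPM against 358, 307, 1090.1 and 203 CPM, so that the states overlapped. *Gucy1a1*, a subunit of the nitric oxide receptor, stood at 513 and 505 CPM against 156, 290.3, 619 and 128 CPM, and *Aspn* at 453 and 505 CPM against 421, 438, 471 and 226 CPM. With 14 steady-state cells the sums do not show that these genes stayed level. In simulated data of this design, 50% of 200 genes changed 4-fold were recovered.

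**Figure D3:**
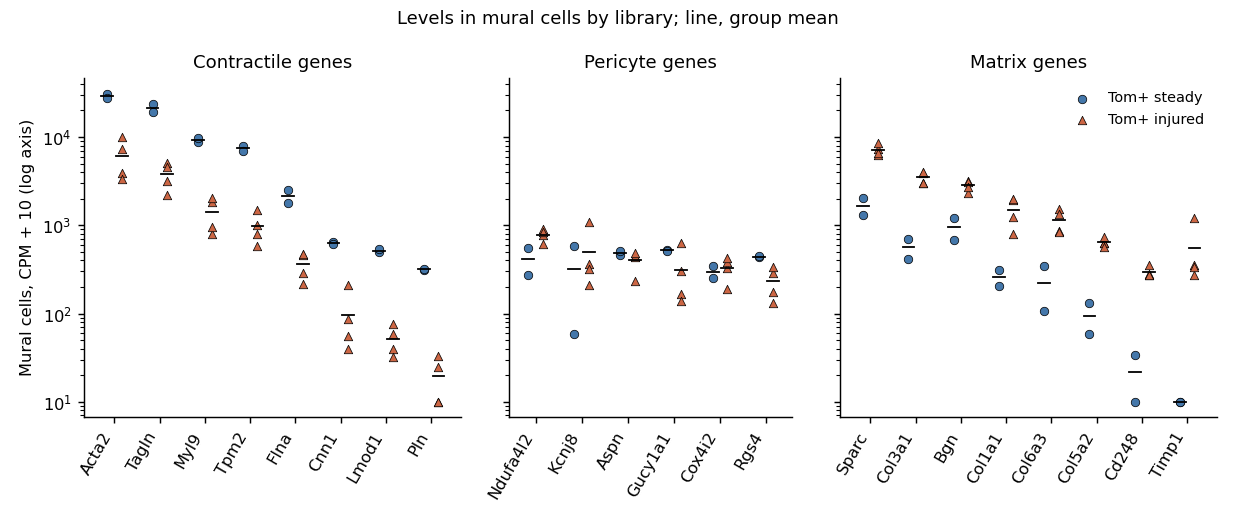
Levels in the summed mural cells of each Tom+ library (CPM + 10, log axis) for contractile, pericyte and matrix genes. Circles are the 2 steady-state and triangles the 4 injured libraries, and lines are group means. The 2 states are apart in all contractile and matrix genes shown, and overlap in *Kcnj8*, *Aspn*, *Gucy1a1* and *Cox4i2*.

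Of the 54 genes that rose, 10 were on the matrix lists. Of 19 genes on the fibrillar and elastic matrix list, 16 were tested and 9 were higher, against 2.96% of all genes tested, with none lower, at a median log2 fold change of 2.34 (2.25 without *Loxl2*, which had no steady-state UMI). Without the *Prg4*+ cells 10 of 13 were higher, against 9.06% of all genes tested, and none lower. *Col3a1* (chromosome 1, 45311538 to 45349706), a fibrillar collagen of vessel walls, stood at 694 and 409 CPM against 3913, 3034, 3035 and 4015 CPM (log2 fold change 2.65, standard error 0.35, edgeR adjusted p = 0.00471). *Col1a1*, the main chain of type I collagen, stood at 302 and 192 CPM against 1916, 1238, 795 and 1947 CPM (2.59, standard error 0.50). Every injured library lay above both steady-state libraries in both genes. Other stromal cells also had more of them after injury (*Col1a1* at 2125 ± 53.4 CPM, SD, n = 2, and 7595 ± 2001, n = 4). The ratio of mural to other stromal cells overlapped between states in *Col1a1*, *Col1a2* and *Bgn* and was higher in each injured library in *Col3a1*. The part of free RNA from other cells was not tested. *Col1a2* (2.11), *Col5a1* (3.05), *Col5a2* (2.93), *Col6a2* (1.77), *Col6a3* (2.43) and *Bgn* (1.58), a proteoglycan that binds collagen, were also higher. *Mgp* stood at 724 and 553 CPM against 4517, 3062, 3418 and 992 CPM and did not pass (adjusted p = 0.0515). Without the *Prg4*+ cells replicate 4 had 2487 CPM of *Mgp*, and it passed (2.24, adjusted p = 0.00234). Of the basement membrane list, where 14 of 17 genes were tested, 1 was higher, against 2.96% of all genes tested, and none lower. It was *Sparc* (chromosome 11, 55394500 to 55423183), a collagen-binding protein, at 2022 and 1299 CPM against 6197, 7268, 8544 and 6541 CPM (2.08, standard error 0.31, adjusted p = 0.00639). Without the *Prg4*+ cells 2 of 7 were higher, *Sparc* and *Col18a1*, against 9.06% of all genes tested. In that fit 1 was lower, *Tinagl1* (-1.15, adjusted p = 0.023), where 12.4% of all genes tested were lower. The 1 that was lower is thus near the share of all genes. *Col4a1* and *Col4a2*, the collagen of basement membranes, stood at 1237 and 313 and at 513 and 481 CPM in the steady state, and at 789 to 1900 and 459 to 1015 CPM after injury. They overlapped between the states and did not pass. Without the *Prg4*+ cells replicate 4 had 1664 and 937 CPM of them and the states no longer overlapped, but neither passed (adjusted p = 0.123 and 0.0534).

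*Set* by *Rgs5*, *Col3a1* and *Sparc* were described in the same way. *Col3a1* stood at 145 and 533 CPM in steady-state and injured cells without *Rgs5*, and at 1632 and 3677 CPM in those with it, the *Prg4*+ cells left out. *Sparc* stood at 853 and 1502 CPM, and at 3775 and 6645 CPM, in the same order. Of the 3 injured cells without *Rgs5*, the 1 from replicate 4 had no UMI of *Col3a1* and 1 of *Sparc*, so that their levels rest on the other pair, from replicate 1. Among fibroblast markers, *Dcn* stood at 90.5 and 96.2 CPM in the steady state and at 63.2, 5.48 and 324 CPM in injured replicates 1 to 3, against 3767 CPM in replicate 4 (115 CPM without the 4 cells). Other stromal cells held 7193 CPM of it over all libraries. The summed fibroblast list, 12 genes, stood at 1056 and 2743 CPM against 2310.1, 1879, 2445 and 7217 CPM. Its most abundant gene was *Gsn* in the steady state, *Thy1* in injured replicates 1 to 3 and *Dcn* in replicate 4.

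*Timp1*, an inhibitor of matrix metalloproteinases, had no UMI in either steady-state library, and stood at 343, 263, 324 and 1210 CPM after injury, at least 13.3-fold higher than the level that 3 counts over both steady-state libraries would give. With the *Prg4*+ cells left out, replicate 4 had 172 CPM and the bound was 6.86-fold. Its relative *Timp3* fell, from 1358 and 842 CPM to 282, 214, 589 and 120 CPM (-2.02 on the log2 scale, standard error 0.51). These were the calls among 11 tested genes of the wound response list, 1 higher and 1 lower, against 2.96% and 4% of all genes tested. Without the *Prg4*+ cells 2 of 9 were higher and 1 lower, against 9.06% and 12.4% of all genes tested. *Postn*, a matricellular protein of healing tissue, stood at 90.5 and 192 CPM against 897, 860, 1886 and 323 CPM and did not pass (edgeR adjusted p = 0.0605). Without the *Prg4*+ cells replicate 4 had 803 CPM of it and it passed (2.70, adjusted p = 0.00562). The largest rises by the fixed rule also held *Ly6e*, *Col15a1*, a collagen of the outer basement membrane, *Ifnar2*, a chain of the type I interferon receptor, *Cd44*, the hyaluronan receptor, *Rap2a*, *Loxl2*, a collagen cross-linking enzyme, and *Eif4e2*. All 7 were without a steady-state UMI, and their bounds ran from 3.35-fold to 8.85-fold. *Cd248*, a membrane protein of pericytes and stromal cells known as endosialin, stood at 0 and 24.1 CPM against 341, 274, 265 and 263 CPM (4.34, standard error 0.69, adjusted p = 0.00885).

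In the sums *Ogn* fell furthest, from 1569 and 698 CPM to 44.2, 0, 29.5 and 30.1 CPM (-5.30 on the log2 scale, standard error 0.67, edgeR adjusted p = 0.00463). Within the sets by *Rgs5* it differed less. It stood at 1452 CPM in steady-state and 533 CPM in injured cells without *Rgs5*. In cells with *Rgs5* it stood at 51.0 and 19.4 CPM, the *Prg4*+ cells left out, and these values were not tested. *Pcp4l1* (-4.45), *Timp4* (-4.68), *Wfdc1* (-4.52), *Chchd10* (-4.47), *Sorbs2* (-4.34), *Tesc* (-4.33), a calcium-binding protein, and *Nkd1* (-4.17), an inhibitor of Wnt signals, were the others by the rule, beside *Pln*. The predicted gene *Gm5526* (-5.00) was among them, and its value is uncertain, since reads of a near-identical copy could be counted for it. Immediate early genes, which tissue digestion is known to switch on, were lower in 2 of 17 tested, with none higher, against 4% of all genes tested, and had a median of -1.31 against 0.11. The count was 8 of 17 without the *Prg4*+ cells, where 12.4% of all genes were lower. *Egr1* stood at 1811 and 2719 CPM against 552, 444, 560 and 368 CPM (-2.28, standard error 0.29), and *Dusp1* at 1298 and 1035 CPM against 457, 389, 471 and 316 CPM (-1.55, standard error 0.29). *Egr1* was lower after injury in the set without *Rgs5* (1579 and 145 CPM) and in the set with it (4387 and 523 CPM). The median mural cell had 5.32% and 4.72% mitochondrial UMIs in the steady state and 3.29%, 3.83%, 5.31% and 4.62% after injury. The part of digestion and RNA quality in these differences was not tested.

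Few genes for signals to and from the vessel were tested. Of 15 listed chemokines and cytokines, 6 were tested and 1 was higher, against 2.96% of all genes tested, with none lower. It was *Ccl11*, an eosinophil attractant (0 and 24.1 CPM against 261, 148, 648 and 271 CPM, log2 fold change 4.35, standard error 1.10, edgeR adjusted p = 0.0489). *Ccl2*, a monocyte attractant, stood at 30.2 and 24.1 CPM against 758, 526, 707 and 60.1 CPM (adjusted p = 0.0748), with the lowest injured value in replicate 4. That value was 153 CPM without the *Prg4*+ cells, and *Ccl2* then passed (4.15, adjusted p = 0.00949). In that fit 2 of 4 tested genes of the list were higher, against 9.06% of all genes tested. Of 14 Notch pathway genes 4 were tested and none passed. *Hey2*, a target of Notch in arterial smooth muscle, stood at 151 and 120 CPM against 8.42, 11.0, 29.5 and 22.6 CPM (adjusted p = 0.0565), and *Hes1* at 241 and 385 CPM against 112, 241, 206 and 120 CPM. Of 21 receptors and channels of vascular tone 4 were tested, among them *Ednra*, the endothelin receptor of smooth muscle, at 121 and 192 CPM against 158, 230, 177 and 82.7 CPM. None of these, of 9 tested transcription factors (*Ebf1*, *Prrx1*, *Epas1* and *Meox2* being the most abundant) and of 5 tested vessel growth signals passed. *Cxcl12* (121 and 938 CPM against 73.7, 54.8, 295 and 105 CPM) and *S1pr3* were the growth signals with the lowest adjusted p, 0.0727 and 0.0938, and *Cxcl12* passed without the *Prg4*+ cells (-2.61, adjusted p = 0.0263). In that fit 2 growth signals were tested, and 12.4% of all genes tested were lower. Cell cycle genes were too low to be tested. *Mki67*, the proliferation antigen, had UMIs in 0 of 14 steady-state and 7 of 72 injured mural cells.

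The same libraries held other stromal cells, and an interaction of cell class with state asked where the mural cells differed from them. The make-up of that other class differed between states. Its *Lrrc15*+ *Adam12*+ cells, described below, numbered 0 and 1 in the steady-state Tom+ libraries and 292, 123, 47 and 51 in the injured ones. The make-up of the mural class differed as well. *Rgs5* was detected in 2 of 6 and 3 of 8 steady-state cells, and in 34 of 36, 20 of 20, 5 of 5 and 10 of 11 injured cells. The interaction cannot tell a changed mix of cells, in either class, from a changed level per cell. Of the same 1827 genes, 34 had a higher injury effect in mural than in other stromal cells (1.86%) and 31 a lower one (1.7%) by the same test with the library as a block, and 448 had an unadjusted p under 0.05. DESeq2 called 190. Leaving out a steady-state library left 8 genes (replicate 1) or 1 gene (replicate 2). Leaving out injured replicates 1, 2 or 3 left 24, 26 or 23, and 194 passed without replicate 4, which holds the *Prg4*+ cells. Without those cells alone 217 of 905 passed. The format of the gene lists as a block left 6, and a stricter filter on cells (1000 or more genes, no more than 5% mitochondrial RNA), under which 4 libraries with 1 of the steady state had enough mural cells, left 0 (405 unadjusted). Genes called here shared the mural values with the comparison above, and 39 of them were called in both, 30.7% of the 127 and 60% of the 65.

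Contractile genes again gave the most calls of any list, with 7 of 17 lower against 1.7% of all genes tested, none higher and a median of -2.96 against 0.04 for all genes. Without the *Prg4*+ cells 9 were lower and 1, *Des*, higher, where 9.61% of all genes tested were lower and 14.4% higher. *Tpm2* had the lowest adjusted p. Its mural sums fell by the values above. In other stromal cells it stood at 48.1 ± 13.4 CPM (SD, n = 2) in the steady state and at 204 ± 71.2 CPM (n = 4) after injury. The difference of effects was -4.99 on the log2 scale (standard error 0.35, edgeR adjusted p = 0.00052). In steady-state and injured mural cells without *Rgs5*, *Tpm2* stood at 9674 and 2955 CPM. In those with *Rgs5*, the *Prg4*+ cells left out, it stood at 867 and 1278 CPM. The values by *Rgs5* were not tested. *Acta2* stood at 33.2 ± 35.3 and 172 ± 126 CPM in other stromal cells (-4.77, standard error 0.92, adjusted p = 0.0323). *Myl9* (-3.67), *Cnn1* (-4.52), *Smtn* (-3.57), *Flna* (-2.96) and *Tpm1* (-1.75) were the others. Outside that list, *Rgs4* (-3.21) of the pericyte list, *Pcp4l1* (-3.91), *Chchd10* (-6.09), *Hspb6* (-3.61), a small heat shock protein of smooth muscle, and *Mob2* (-3.22) were lower. *Rgs4* was the 1 call among 13 tested pericyte genes. Without the *Prg4*+ cells 2 of 12 were lower, *Rgs4* and *Mcam* (-3.62, adjusted p = 0.0409), where 9.61% of all genes tested were lower. The mural levels of *Mcam* overlapped between states, at 332 and 337 CPM against 322, 334, 354 and 191 CPM without those cells. In that fit 2 were higher, *Kcnj8* (3.00, adjusted p = 0.0451) and *Steap4*, where 14.4% of all genes tested were higher.

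Several genes with a higher effect in mural cells stood lower after injury in other stromal cells. *Serpine2*, an inhibitor of thrombin and plasminogen activators, stood at 513 and 385 CPM in steady-state mural cells and at 2262, 2886, 4567 and 1962 CPM after injury. In other stromal cells it stood at 737 ± 186 and 285 ± 48.9 CPM, and the difference of effects was 4.06 on the log2 scale (standard error 0.43, edgeR adjusted p = 0.00397). *Thy1* stood at 302 and 24.1 CPM against 1586, 1073, 1031 and 444 CPM in mural cells, and at 250 ± 75.6 and 124 ± 11.1 CPM in other stromal cells (3.85, standard error 0.74, adjusted p = 0.0323). Mural cells without *Rgs5* had no UMI of *Thy1* in either state. In those with *Rgs5*, the *Prg4*+ cells left out, it stood at 561 CPM in the steady state and 1443 CPM after injury, which was not tested. The change of *Thy1* in mural cells alone did not pass (adjusted p = 0.0663), but did without the *Prg4*+ cells, where replicate 4 had 1129 CPM (2.83, adjusted p = 0.00767). *Cd248* (5.47) differed likewise, with 414 ± 29.2 and 224 ± 37.8 CPM in other stromal cells. By the same sets of mural cells, *Cd248* stood at 0 and 48.4 CPM without *Rgs5* and at 51.0 and 317 CPM with it, also not tested. *Pcolce* (4.39), an enhancer of procollagen processing, rose from 90.5 and 48.1 CPM to 807, 876, 1296 and 1601 CPM in mural cells, while its states overlapped in other stromal cells (2553 ± 42.4 and 2109 ± 354 CPM). *Col3a1* (1.33) and *Sparc* (1.55) stood higher after injury in both classes, from a lower level in mural cells. *Col3a1* in other stromal cells went from 3539 ± 901 to 9399 ± 1134 CPM. *Prrx1* (2.05), *Gsn* (2.67), *Dlk1* (6.76), *Clec2d* (4.97), *Tmem100* (3.79), *Tmem176a* (3.39) and *Serping1* (3.23) were the other named genes. *Gsn* was lower after injury in other stromal cells (14191 ± 2737 and 1363 ± 576 CPM) and overlapped between states in mural cells, where it did not pass but was called lower without the *Prg4*+ cells (-1.38, adjusted p = 0.0442). *Ifnar2*, with no steady-state UMI in mural cells, stood at 152 and 150 CPM in other stromal cells of the 2 states.

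**Figure D4:**
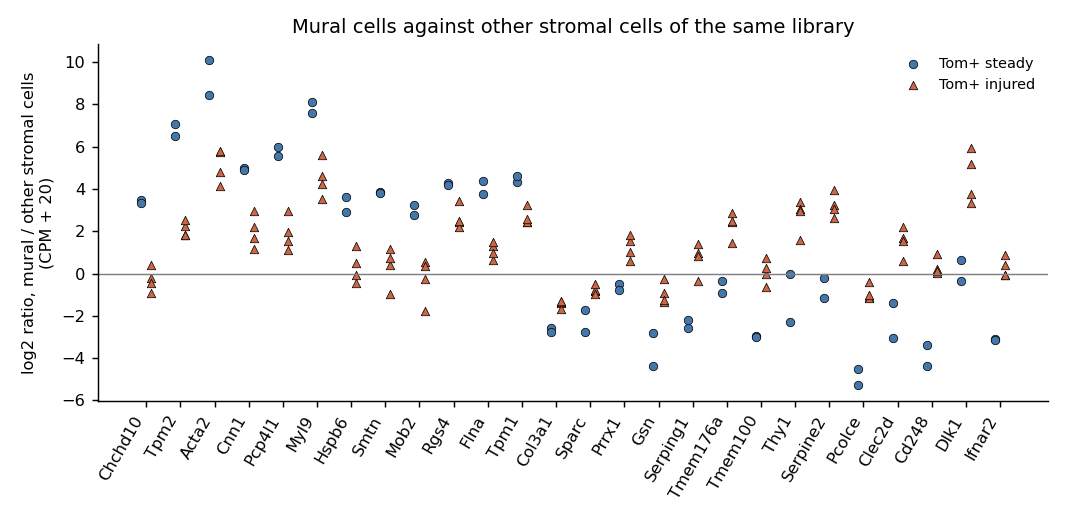
Log2 ratio of mural to other stromal cells of the same library (each CPM + 20) for the 26 genes named from the interaction, ordered by the difference of injury effects. Circles are the 2 steady-state and triangles the 4 injured Tom+ libraries, and the grey line marks equal levels. Contractile genes to the left come closer to equal after injury, and *Serpine2*, *Thy1* and *Dlk1* lie above it in every injured library.

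Mural cells were also set beside other stromal cells chosen by a pair of markers each. The 697 *Lrrc15*+ *Adam12*+ cells, of which 1 was from a steady-state library, had 548 CPM of *Acta2*, detected in 54.7% of them, and 1.87 CPM of *Higd1b*. They had 336 CPM of *Tpm2* and 439 CPM of *Tpm1*, against 1717 and 2526 CPM in mural cells, and 1057 CPM of *Aspn* of the pericyte list, against 403 CPM. Since the mural gate bars *Lrrc15*, these sets are apart by rule. The 340 *Dpp4*+ *Pi16*+ cells, a gate that takes *Pi16*+ fibroblasts, had 17.4 CPM of *Acta2* and no UMI of *Higd1b*. The mural cells as a whole had 9781 and 327 CPM. *Rgs5* was detected in 4.73% of the *Lrrc15*+ *Adam12*+ cells and in 0.294% of the *Dpp4*+ *Pi16*+ cells. These gates were not tested against each other.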

How the data were processed

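The deposited values were raw counts of UMIs per gene and cell barcode, which the authors made from 10x Genomics 5' libraries without normalization, for barcodes they had called as cells. Per the submitters' processing notes, the tool was Cell Ranger and the build GRCm38.p6, and 5 of the 9 files name version 3.0.2 in their headers. The members, the 23 gene lists and the tests were chosen with earlier results of these data known.

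Of 5161 barcodes, 4788 were kept, each with 500 or more genes, 1000 or more UMIs and no more than 10% of them mitochondrial. Library totals ran from 2866464 to 15033902 UMIs. Shares were tested by exact permutation. Intervals are Clopper-Pearson at 95%, and the limit for a share of 0 is 3 counts over the cells. The UMIs of mural cells were summed per library (at least 5 cells) and tested with edgeR 4.0.16 in R 4.3.3 (TMM, filterByExpr, quasi-likelihood, Benjamini-Hochberg over all genes tested, the 7 genes of the gate left out), with DESeq2 1.42.0 as an alternative. The standard error is the log2 fold change over the root of F. Other stromal cells were kept cells without *Ptprc*, *Pecam1* or *Cdh5* UMIs that were not mural. The interaction kept the genes that passed the low-count filter on mural sums, a choice made after seeing the data. The contrast of Tom+ and Tom-GFP+ mural cells after injury, planned as a test, could not be fitted with 0 Tom-GFP+ members. Doublets were not removed, and leaving out the highest 5% of Scrublet scores was an alternative. Labels tie replicates to no named animal, so that p-values measure the spread between these libraries.

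Named genes were the 10 largest changes in each direction among calls whose groups did not overlap, all listed genes that passed, the 4 most abundant of each list, and the first 20 against other stromal cells. Positions are from GENCODE vM21. The count tests were tested on simulated data.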

Additional observations from a re-analysis of the deposited data

Results flagged for a closer look

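Of 90 values with at least 20 UMIs, 16 had 1 of the 4 Tom+ injured libraries far from the other 3 (gap over range above Dixon's critical value), where chance gives about 1 in 20. In 12 of them the library was replicate 4, which holds the 4 *Prg4*+ cells. It was far above the others in *Prg4* (25276 CPM), *Fn1* (12736 CPM), *Dcn* (3767 CPM), *Clec3b* (1556 CPM), *Timp1* (1210 CPM), *Htra4* (632 CPM), *Clic5* (406 CPM), *Tspan15* (301 CPM), *Bglap2* (271 CPM) and the GFP reporter (135 CPM), and far below them in *Col4a2* (459 CPM) and *Zfp36* (248 CPM). Without the *Prg4*+ cells replicate 4 had 937 CPM of *Col4a2*, but 249 CPM of *Zfp36*, whose low value thus did not rest on them. Replicate 1 was far above in *Cd248* (341 CPM) and in the cell cycle gene *Birc5* (80.0 CPM), and replicate 3 above in *Pcp4l1* (206 CPM) and below in *S100a6* (1738 CPM).

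The injury effect differed between mural and other stromal cells by the interaction test in edgeR. The differences, as log2 values of mural minus other, were 12.4 for *Ifnar2* (no steady-state UMI in mural cells, so that the size is no measure), 6.76 for *Dlk1*, 5.47 for *Cd248*, 4.97 for *Clec2d*, 4.39 for *Pcolce*, 4.06 for *Serpine2*, 3.85 for *Thy1*, 3.79 for *Tmem100*, 3.39 for *Tmem176a* and 3.23 for *Serping1*. They were -6.09 for *Chchd10*, -4.99 for *Tpm2*, -4.77 for *Acta2*, -4.52 for *Cnn1*, -3.91 for *Pcp4l1*, -3.67 for *Myl9*, -3.61 for *Hspb6*, -3.57 for *Smtn*, -3.22 for *Mob2* and -3.21 for *Rgs4*.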

How the results depend on the processing

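The 3 differences of shares kept their sign in every refit. The Tom+ excess over Tom-GFP+, whose p of 0.0222 did not pass once adjusted, was 0.824 points with all 3 markers required (exact permutation p = 0.111), and over single libraries left out it ran from 1.68 to 2.31 points, with exact p from 0.0333 to 0.133. Genes changed with injury numbered 263 with no filter on low counts, 0 with cells of 1000 or more genes and 5% or less mitochondrial RNA (440 unadjusted), 207 with *Pdgfra* at 0, 194 without the 4 *Prg4*+ cells (also added), 191 without the highest Scrublet scores, 3 with *Myh11* required (an alternative added after seeing the data), 0 with the gene list's format blocked (330 unadjusted), and 0 to 155 with a library left out. Interaction calls numbered 190 by DESeq2, 166 with no filter, 0 under the stricter cell filter (405 unadjusted), 226 with *Pdgfra* at 0, 217 without the *Prg4*+ cells, 0 with *Myh11* required (363 unadjusted), 6 with the format as a block, 261 with low counts filtered on both classes, also added later, and 1 to 194 with a library left out. The stricter cell filter and the *Myh11* condition also left 4 libraries, with 1 of the steady state. Fits with 1 steady-state library assume that it varies like the others. In the 1236 refits of the named genes, no direction turned and 401 no longer passed. The named genes were calls whose groups, or ratios in the interaction, did not overlap, so that a kept direction has little weight. The causes were not tested.

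The replicate number as a block gave 255 genes for injury, where 2746 and not 1827 were tested, and 69 for the interaction. With same-numbered libraries as pairs, the share differed between states by 1.94 points, in Tom+ libraries and within lineage. The Tom+ excess over Tom-GFP+ was then 3.58 points. Same-numbered Tom+ libraries of the 2 states did not deviate together over 1827 genes in mural cells (correlations of 0.0479 and -0.0359). With so few libraries this cannot decide whether any of them share an animal or a batch. It does not bear on the Tom-GFP+ libraries, which held no mural cells. Requiring all 3 markers or at least 10 members left too few steady-state cells to fit gene tests, and Tom+ libraries alone gave the same fit, since no other held members. In simulated data 75.5% (injury) and 76.5% (interaction) of 200 genes changed 8-fold were recovered, beside 8 and 11 false calls. At 4-fold 50% (100 genes) and 53.5% (107 genes) were recovered, beside 8 and 13 false calls.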

Other observations

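UMIs of cell cycle genes were few in mural cells. *Ccnb2*, *Birc5*, *Tyms* and *Pcna* led the 12 cell cycle genes, whose summed level was 30.2 and 96.2 CPM in the steady state and 472, 142, 118 and 60.1 CPM after injury. In other stromal cells of the same libraries the sum was 42.9 and 92.8 CPM, and 561, 303, 257 and 128 CPM. None of the 12 passed the filter on low counts, so no test was made.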
